A study of Mus musculus with 8 samples.

Results

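Dlk1 and 9 other imprinted growth genes (Meg3, Rian, H19, Igf2, Cdkn1c, Peg3, Ndn, Grb10 and Igf2r) were followed in mouse bone marrow progenitors that lack or keep a working Cbfb allele. A gene was measured where a row of the array carried its symbol and no other symbol. This held for 9 of the 10 genes, out of 19938 genes with such a row. H19 had no row of its own and is not analysed here. The members were chosen by name, with earlier results of these data known. Dlk1 was selected on its measured difference between KO and Het LSK, so that difference is given as a description, without a test.

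Cbfb encodes the shared partner of the Runx transcription factors, which strengthens their grip on DNA. The 4 groups were KO LSK, Het LSK, KO GMP and Het GMP, with 2 arrays each. KO mice were Vav1-iCre x Cbfb(F/F) and Het mice were Vav1-iCre x Cbfb(F/+), so that every animal carried the blood-active Vav1-iCre and no wild type was measured. Mice were 7 weeks old and backcrossed to C57BL6. LSK cells (stem cells together with early progenitors of many lineages) and GMP cells (granulocyte and macrophage progenitors) were sorted from bone marrow, 200000 cells a sample, at a stated purity above 98%.

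An imprinted gene is transcribed mainly from the allele inherited from one parent. Many imprinted genes set growth before birth: as a rule, genes active on the paternal allele (Igf2, Dlk1) promote growth, and genes active on the maternal allele (Igf2r, Cdkn1c, and Grb10 in most tissues) restrain it. Several are known in long-lived blood stem cells, where Cdkn1c, H19 and the non-coding RNAs of the Dlk1 locus are linked to quiescence. The arrays measured total RNA and did not separate the parental alleles, so the values below say nothing of imprinting itself.

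Values are log2 expression values, and differences are on the same scale, KO minus Het unless named otherwise. Array medians lay between 4.92 and 5.09 over the 21789 rows with 1 symbol, and arrays of a group correlated at 0.990 to 0.995. Cbfb itself read 6.93 and 6.98 in KO LSK against 7.56 and 7.55 in Het LSK (-0.60, adjusted p = 0.0557), and 6.48 and 6.96 in KO GMP against 7.53 and 7.65 in Het GMP (-0.86, adjusted p = 0.0130). Leaving out KO GMP replicate 1 (adjusted p = 0.0755) or either Het GMP array (0.0689 and 0.104) ended the GMP call, and leaving out either KO GMP array (0.0252) gave one in LSK. Which part of the gene was deleted is not stated in the labels, and a signal that stays in KO does not measure the deletion. Adjusted p-values are limma's, with Benjamini-Hochberg adjustment over the 21789 rows, and 0.05 was the threshold. The labels call the 2 arrays of each group biological replicates but do not tie arrays to mice. The p-values therefore cover the spread of these arrays and perhaps not that of mice. An exact two-sided permutation of 2 against 2 cannot go below p = 0.333.

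Dlk1 encodes a membrane protein with epidermal growth factor repeats, related to the Notch ligands, that is abundant in fetal tissues and in some progenitor and stromal cells. It read 9.31 and 8.80 in KO LSK, against 5.40 and 4.98 in Het LSK. In GMP it read 8.004 and 8.47 in KO, against 5.17 and 4.72 in Het. All 4 KO arrays lay far above all 4 Het arrays. Of all rows, 51.3% lay below the Het LSK mean and 50.4% below the Het GMP mean. KO exceeded Het by 3.87 in LSK (SE 0.25, a 14.6-fold difference). In GMP the rise was 3.29 (SE 0.25, 9.77-fold, adjusted p = 9.9e-05). The GMP difference lay between 3.06 and 3.52 with each array left out in turn and passed each time. From high to low the group means were 9.06 ± 0.36 in KO LSK, 8.23 ± 0.33 in KO GMP, 5.19 ± 0.30 in Het LSK and 4.95 ± 0.32 in Het GMP (SD, n = 2 each). GMP minus LSK was -0.82 in KO and -0.24 in Het. These too are given without a test, since they use the LSK values on which Dlk1 was selected. In sorted bulk samples, more cells of a Dlk1-rich kind and more Dlk1 RNA in each cell cannot be told apart.

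**Figure D1:**
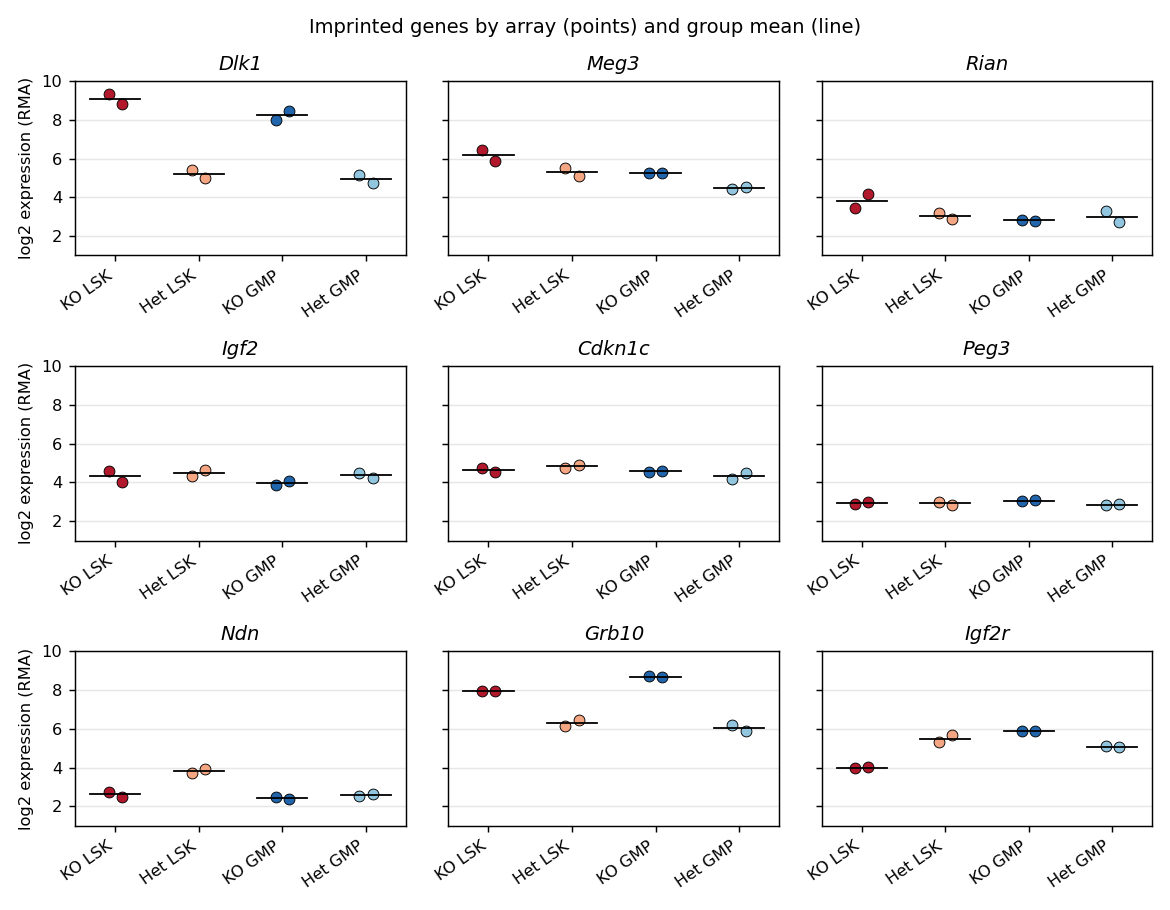
Log2 expression (RMA, vertical axis) of the 9 measured imprinted genes on each of the 8 arrays, in 4 groups of 2 arrays; points are arrays and lines are group means. Dlk1 and Grb10 stand higher in KO of both cell types, Ndn is lower in KO LSK than in Het LSK, and Igf2r is lower in KO LSK but higher in KO GMP than in the Het cells of the same type.

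The Dlk1 locus came next, since Dlk1, Rtl1 and Dio3 (protein-coding, active on the paternal allele) share a domain with the maternally expressed non-coding RNAs Meg3 and Rian and with many microRNAs. The 250 bases before the gene start are shown for Dlk1 and for the first listed start of Meg3, because, among the windows of the imprinted growth genes, these held a core Runx motif. The letters searched were TGTGGT on either strand (ACCACA when read on the other), and they stand in capitals. Sequences are RefSeq's, build GRCm38.p6, plus strand, at chr12:109452573-109452822 for Dlk1 and chr12:109540746-109540995 for Meg3.

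Dlk1: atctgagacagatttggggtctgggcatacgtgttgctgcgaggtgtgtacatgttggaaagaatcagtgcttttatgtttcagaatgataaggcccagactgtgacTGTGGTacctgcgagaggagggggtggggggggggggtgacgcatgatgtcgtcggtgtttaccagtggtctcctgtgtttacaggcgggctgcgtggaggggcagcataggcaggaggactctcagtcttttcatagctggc

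Meg3: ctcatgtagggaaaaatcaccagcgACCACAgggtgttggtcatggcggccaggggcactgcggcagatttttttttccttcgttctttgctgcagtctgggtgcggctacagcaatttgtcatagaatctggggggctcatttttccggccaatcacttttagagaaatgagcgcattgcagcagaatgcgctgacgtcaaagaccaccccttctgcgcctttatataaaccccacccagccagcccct

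The motif began 143 bases before the Dlk1 start and 225 bases before the Meg3 start. It stood in 2 of 13 windows of 8 of the 10 genes (RefSeq's table holds none for H19 or Cdkn1c), and in 14% of the 32851 mouse windows of the same length (4614 of them). A match is a description of the letters and not a binding site.

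Meg3 lies next to Dlk1 in the domain. It read 6.45 and 5.87 in KO LSK, against 5.50 and 5.09 in Het LSK. In GMP it read 5.27 and 5.25 in KO, against 4.44 and 4.53 in Het. The groups did not overlap in either cell type, and both differences were much smaller than those of Dlk1. The LSK rise of 0.87 (SE 0.20, adjusted p = 0.0329) passed, and the GMP difference of 0.77 (SE 0.20, adjusted p = 0.0631) missed the threshold. The same GMP difference passed when the 2 GMP groups were fitted alone (adjusted p = 0.00837). It also passed where rows with no group mean above 4.99 were left out (0.0408) and with the replicate number as a block (0.0480). These results rest on few arrays. The LSK call ended without KO LSK replicate 1 (difference 0.58, adjusted p = 0.111), Het LSK replicate 2 (0.202), either Het GMP array (0.0622) or either KO GMP array (0.0554), and when the 2 LSK groups were fitted alone (0.106). Leaving out either KO LSK array (0.0174) gave a call in GMP. In both genotypes Meg3 was lower in GMP than in LSK, with a GMP minus LSK difference of -0.90 in KO (adjusted p = 0.0340) and -0.81 in Het (adjusted p = 0.0243). The KO call was lost without either Het GMP array, either KO GMP array or KO LSK replicate 1 (adjusted p 0.0652 to 0.162), and the Het call without either Het GMP array or Het LSK replicate 1 (0.0895 to 0.143).

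Rian, a long non-coding RNA that hosts small nucleolar RNAs, read 3.43 and 4.17 in KO LSK, against 3.21 and 2.90 in Het LSK. In GMP it read 2.81 and 2.80 in KO, against 3.28 and 2.73 in Het. The LSK groups did not overlap, but the KO LSK arrays lay far apart, and at most 32.0% of rows lay below its group means. Neither the LSK difference (0.75, SE 0.26, adjusted p = 0.137) nor the GMP difference (-0.20, adjusted p = 0.786) passed. Without KO LSK replicate 1 the LSK difference was 1.12 and passed (adjusted p = 0.0253). Within KO, Rian differed by -0.998 between GMP and LSK (adjusted p = 0.0575, and 0.0158 without KO LSK replicate 1).

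The other listed protein-coding genes there did not pass. Rtl1, a retrotransposon-derived placental gene, differed by 0.21 in LSK and -0.05 in GMP, and Dio3, the deiodinase that inactivates thyroid hormone, by 0.02 and -0.21. Begain, the next gene upstream of Dlk1, differed by 0.18 in LSK and -0.19 in GMP. Of the 39 microRNA rows measured in the domain, 0 passed limma's test in LSK and 0 in GMP, where 7.73% and 6.02% of all rows passed. At an unadjusted p under 0.05 there were 3 in LSK and 1 in GMP, and the share of all rows at that level is not given here. Differences of the 39 rows ran between -0.32 and 0.72 in LSK, with a median of 0.16. In GMP they ran between -0.43 and 0.43, with a median of 0.02. The median of all rows was 0.01 in LSK and -0.02 in GMP. Such rows read precursor hairpins with few probes, and mature microRNAs were not measured. None of the next 4 measured genes further upstream (Wdr25, Wars, Slc25a47 and Slc25a29) passed in either cell type. Of the next small nucleolar RNA rows after Rian, DQ267102 differed by 0.66 in LSK (adjusted p = 0.0425), and this call was lost without each array other than KO LSK replicate 1 (adjusted p 0.0573 to 0.234). These neighbours were taken by gene order, after the members' values were seen.

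**Figure D2:**
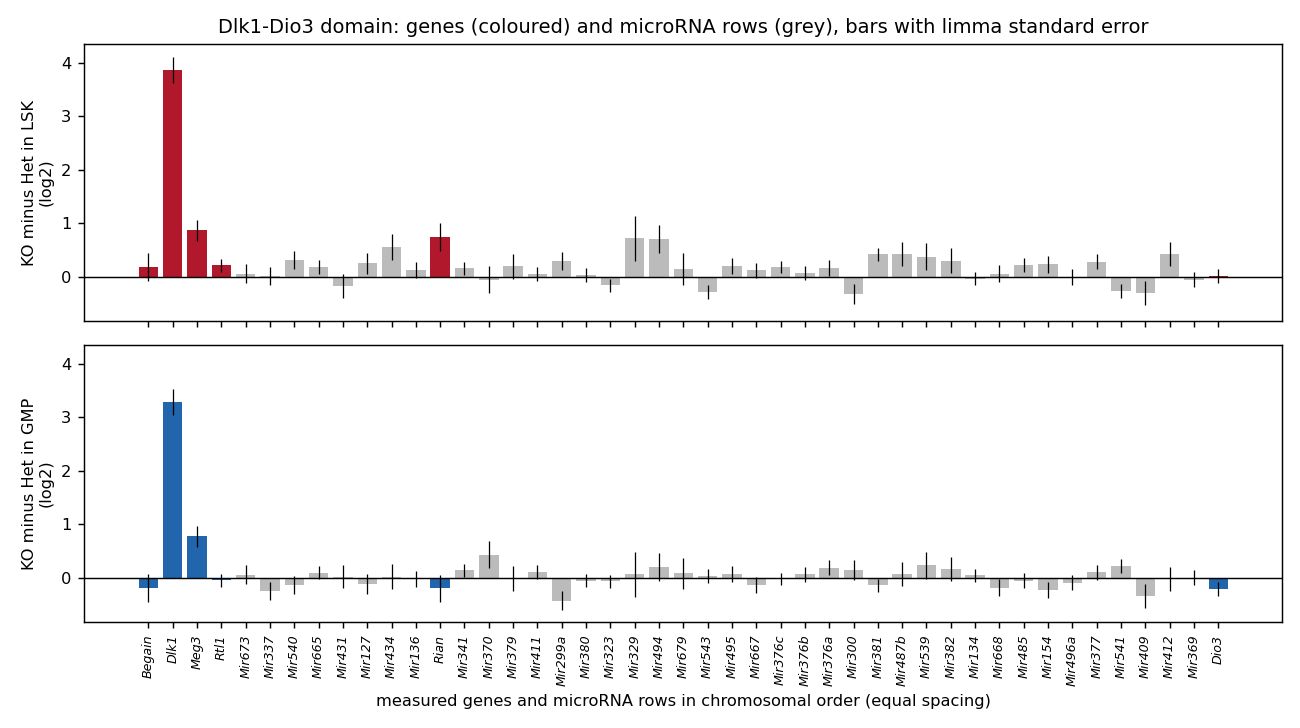
KO minus Het difference (log2, vertical axis) in LSK (top) and GMP (bottom) of the 6 genes and 39 microRNA rows measured in the Dlk1-Dio3 domain, in chromosomal order with equal spacing; bars are differences and lines limma's standard error. The Dlk1 bars (3.87 and 3.29) stand far above those of Meg3 (0.87 and 0.77) and of every other row of the domain.

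Grb10, an adaptor protein that binds the insulin and insulin-like growth factor receptors and damps their signal, rose in KO of both cell types. It read 7.97 and 7.98 in KO LSK, against 6.12 and 6.44 in Het LSK. In GMP it read 8.71 and 8.69 in KO, against 6.19 and 5.87 in Het. Both KO groups lay above both Het groups and their arrays nearly coincided. The rise was 1.69 in LSK (SE 0.15, 3.22-fold, adjusted p = 0.000204) and 2.67 in GMP (SE 0.15, 6.36-fold, adjusted p = 3.6e-05). Both passed with each array left out. The 0.98 between those differences missed the threshold as an interaction (SE 0.21, adjusted p = 0.0566) and passed where rows with no group mean above 4.99 were left out (adjusted p = 0.0344) and with a trended, robust eBayes (0.0292). Within KO, Grb10 was 0.73 higher in GMP than in LSK (adjusted p = 0.0244). That call was lost without KO GMP replicate 1 or 2 or KO LSK replicate 1 or 2 (adjusted p 0.0583 to 0.133). Its nearest measured neighbours Ddc (0.13 in LSK, 0.14 in GMP) and Cobl (-0.24 and 0.04) did not pass. Of the 5 measured genes on either side, those that passed were Plek, a platelet and leukocyte signalling protein gene, and Ikzf1, a transcription factor gene of lymphoid development. Plek rose by 1.51 in LSK (adjusted p = 0.000745) and 3.23 in GMP (adjusted p = 2.7e-05), and Ikzf1 fell by 0.86 in LSK (adjusted p = 0.00311), each also with any array left out.

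Igf2r, the receptor that binds Igf2 and carries it to lysosomes, went opposite ways in the 2 cell types. It read 3.97 and 4.03 in KO LSK, against 5.34 and 5.66 in Het LSK. In GMP it read 5.91 and 5.87 in KO, against 5.12 and 5.04 in Het. The KO LSK arrays were the lowest of the 8 and the KO GMP arrays the highest. Igf2r fell by 1.50 in LSK (SE 0.14, 2.83-fold, adjusted p = 0.000208) and rose by 0.81 in GMP (SE 0.14, 1.75-fold, adjusted p = 0.00750). The interaction, the GMP difference minus the LSK difference, was 2.31 (SE 0.19, adjusted p = 0.00128). The LSK fall and the interaction passed with each array left out. The GMP rise missed the threshold without KO GMP replicate 1 (adjusted p = 0.0576), KO GMP replicate 2 (0.0566), Het GMP replicate 1 (0.0514) or Het GMP replicate 2 (0.0700), at differences of 0.77 to 0.85. In KO, GMP exceeded LSK by 1.89 (SE 0.14, adjusted p = 8.3e-05), and in Het the difference was -0.42 (adjusted p = 0.0640, and 0.0327 without Het LSK replicate 1). Airn, the antisense RNA that starts inside Igf2r and is needed for its imprinting, differed by -0.67 in LSK (adjusted p = 0.0353) and 0.05 in GMP. The LSK call of Airn was lost without each array other than Het LSK replicate 1 (adjusted p 0.0521 to 0.190). Whether the labelling kept the strand is not stated in the labels, and overlapping reads of Igf2r and Airn cannot be fully told apart.

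The first listed windows before the starts of Grb10 and Igf2r are shown because these members differed most after Dlk1 in LSK and, unlike the Dlk1 window, held no TGTGGT on either strand. They lie at chr11:12037421-12037670 and chr17:12769707-12769956 (GRCm38.p6, RefSeq) and are printed along the minus strand, on which both genes run. No letters stand in capitals. They held 40 and 27 CpG pairs, against 8 in the Dlk1 window.

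Grb10: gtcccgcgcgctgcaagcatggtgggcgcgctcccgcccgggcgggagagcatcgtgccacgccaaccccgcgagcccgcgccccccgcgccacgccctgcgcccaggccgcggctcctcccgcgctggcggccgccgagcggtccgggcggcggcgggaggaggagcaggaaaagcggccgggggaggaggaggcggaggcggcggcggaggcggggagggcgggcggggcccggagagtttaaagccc

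Igf2r: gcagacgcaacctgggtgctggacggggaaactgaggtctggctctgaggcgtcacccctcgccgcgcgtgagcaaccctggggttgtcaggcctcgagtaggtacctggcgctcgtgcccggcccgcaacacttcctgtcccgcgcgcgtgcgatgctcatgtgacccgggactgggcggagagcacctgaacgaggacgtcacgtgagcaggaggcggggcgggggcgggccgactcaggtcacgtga

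Ndn, which encodes necdin, a growth-restraining protein of the MAGE family known from neurons and blood stem cells, fell in KO LSK. It read 2.76 and 2.46 in KO LSK, against 3.71 and 3.92 in Het LSK. In GMP it read 2.50 and 2.36 in KO, against 2.53 and 2.61 in Het. Het LSK stood above the other 3 groups, which lay close together at the low end, with 7.99% to 10.4% of rows below them. In LSK it fell by 1.20 (SE 0.14, adjusted p = 0.00102), which held with each array left out, while the GMP difference was -0.14 (adjusted p = 0.720). Within Het, Ndn was lower in GMP than in LSK by a difference of -1.24 (adjusted p = 0.000429). The interaction of 1.07 (adjusted p = 0.0319) was lost without each array other than KO LSK replicate 1 (adjusted p 0.0545 to 0.135), and since Ndn lay at the low end in GMP of both genotypes, where a fall could not show, it does not tell whether the effect differs between the cell types. Its neighbours in the same imprinted cluster, Magel2 (-0.01 in LSK, 0.09 in GMP), Mkrn3 (-0.29, 0.33) and Peg12 (-0.28, 0.06), did not pass.

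Igf2, Cdkn1c and Peg3 did not pass between KO and Het. Igf2, the fetal growth factor, read 4.61 and 4.02 in KO LSK against 4.32 and 4.66 in Het LSK, and 3.85 and 4.08 in KO GMP against 4.50 and 4.24 in Het GMP. The differences were -0.17 (SE 0.21, adjusted p = 0.743) and -0.40 (SE 0.21, adjusted p = 0.393). Cdkn1c, the cell cycle inhibitor p57, read 4.74 and 4.53 in KO LSK against 4.77 and 4.92 in Het LSK, and 4.55 and 4.58 in KO GMP against 4.20 and 4.47 in Het GMP. Its differences were small and of opposite sign, -0.21 in LSK (SE 0.14, adjusted p = 0.479) and 0.23 in GMP (SE 0.14, adjusted p = 0.470). Within Het it was lower in GMP than in LSK (-0.51, adjusted p = 0.0356), a call that ended once array medians were subtracted (-0.35, adjusted p = 0.0975), and without Het GMP replicate 1, either Het LSK array or either KO GMP array (0.0604 to 0.241). Peg3, a zinc finger protein, stayed between 2.82 and 3.11 on all 8 arrays, with differences of 0.03 in LSK (adjusted p = 0.939) and 0.21 in GMP (adjusted p = 0.448). RMA gives no detection call, so rows at this end of the range are not shown to be expressed, and a fall from there could not be seen.

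**Figure D3:**
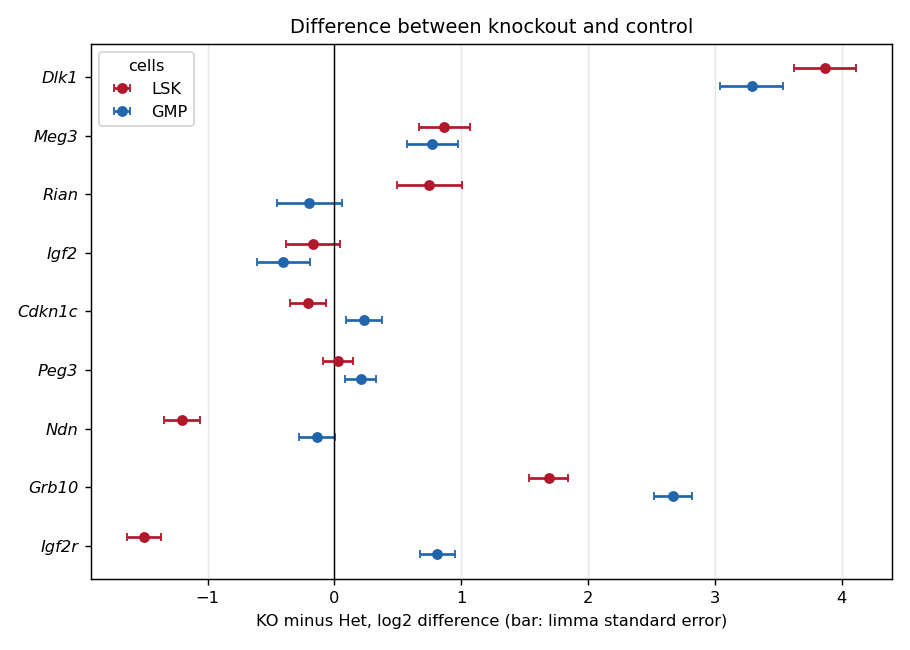
KO minus Het difference (log2, horizontal axis) of the 9 measured imprinted genes in LSK and GMP; points are differences of the means of 2 against 2 arrays and bars limma's standard error. Dlk1 and Grb10 lie right of 0 in both cell types, and Igf2r lies left of 0 in LSK (-1.50) and right of it in GMP (0.81).

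Counted together without Dlk1, 4 of 8 measured genes passed in LSK, Meg3 and Grb10 higher and Ndn and Igf2r lower, where 7.73% of all rows passed. In GMP 3 of 9 passed, Dlk1, Grb10 and Igf2r, all higher, where 6.02% of rows passed. No member was lower in GMP by limma's adjusted test, nor at an unadjusted p under 0.05 (0 of 9). The interaction passed for Igf2r and, with its GMP values at the low end, for Ndn, 2 of 8, both in the upward direction, against 2.29% of rows (1.69% upward, 0.601% downward). Between GMP and LSK, again without Dlk1, 3 of 8 passed within KO (Grb10 and Igf2r higher, Meg3 lower in GMP), against 6.05% of rows (3.66% higher, 2.39% lower). Within Het 3 of these 8 passed (Meg3, Cdkn1c and Ndn, all lower in GMP), against 17.5% of rows (7.9% higher, 9.6% lower). The count within KO became 1 without either KO GMP array, the count within Het became 1 without Het GMP replicate 1, and the interaction count became 1 without each array other than KO LSK replicate 1. Both KO arrays lay above both Het arrays in 22.8% of all rows in LSK and 23.4% in GMP, and below them in 22.7% and 27.9%, so groups of 2 that do not overlap are common on these arrays. The genes were chosen with earlier results of these data known, so their counts describe the list. Both KO and Het of 1 cell type enter several of these comparisons, which therefore share arrays.

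Across the 8 arrays, Grb10 had the pattern most like that of Dlk1 among the members (Pearson r 0.911), followed by Meg3 (0.775), Peg3 (0.549) and Rian (0.424). Cdkn1c (0.076), Igf2r (-0.384), Igf2 (-0.389) and Ndn (-0.528) were less alike. Among the 2346 rows whose group means span at least 1, the closest to Dlk1 were Ppm1e (0.995), a protein phosphatase gene, Sbf2 (0.994), Lrrc8b (0.992), a subunit of volume-regulated anion channels, Slc24a3 (0.989) and the integrin chain gene Itga6 (0.988). Ppm1e differed by 2.23 in LSK and 1.82 in GMP. The most opposed were Cpne2 (-0.992), Cercam (-0.982), B3gnt5 (-0.980), Alcam (-0.974) and Ms4a6b (-0.973). These 8 points fall into 4 groups, and each r is given as a description.

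Of 73 other imprinted genes listed, 57 were measured. In LSK 5 rose and 4 fell in KO, where 3.02% of all rows were called higher and 4.71% lower. In GMP 10 rose and 1 fell, where 3.45% of rows were called higher and 2.57% lower. The LSK count of 9 became 4 without any 1 of the 4 LSK arrays and 5 without either Het GMP array, and the GMP count of 11 became 5 without KO GMP replicate 2 and 4 without Het GMP replicate 1. The medians of the 57 were near 0 (-0.01 in LSK, -0.04 in GMP), as were those of all rows.

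Kcnk9, a potassium channel gene expressed from the maternal allele in brain, had the largest difference of the 57 in each cell type. It read 8.41 and 7.31 in KO LSK, against 2.89 and 3.55 in Het LSK, and 6.30 and 5.79 in KO GMP, against 3.39 and 3.49 in Het GMP. The rise was 4.64 in LSK (SE 0.35, adjusted p = 8.2e-05) and 2.60 in GMP (SE 0.35, adjusted p = 0.00222). Both held with each array left out. Trappc9, the next gene on the chromosome, rose by 0.95 in LSK (adjusted p = 0.0112) and 0.72 in GMP (adjusted p = 0.0482). Among the 5 measured genes on either side, others passed in both directions. St3gal1 rose (0.92 in LSK, 2.03 in GMP), Khdrbs3 fell (-1.39 and -0.86), and Dennd3 (-0.58) and Slc45a4 (-0.69) fell in LSK. The LSK calls of St3gal1, Dennd3 and Slc45a4 and the GMP call of Khdrbs3 were lost without some arrays. The LSK call of Trappc9 ended without either Het LSK array (adjusted p 0.0587 and 0.0749), and its GMP call without either Het LSK array or any of the 4 GMP arrays (adjusted p 0.0769 to 0.282).

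Htr2a, a serotonin receptor gene, rose in GMP by 2.24 (adjusted p = 0.000543), Peg10, a retrotransposon-derived placental gene, by 1.10 (adjusted p = 0.000694) and Gab1, a docking protein of growth factor receptors, by 0.98 (adjusted p = 0.00313). These GMP rises passed with each array left out. Peg10 read 5.18 and 5.02 in KO GMP, against 4.02 and 3.98 in Het GMP. In LSK it read 4.61 and 4.52 in KO, against 4.54 and 4.65 in Het, so its groups differed in GMP and overlapped in LSK. Its neighbour Sgce, a sarcoglycan gene with which it shares a start region, rose by 1.33 in GMP (adjusted p = 0.00479). That call ended without Het GMP replicate 1 (difference 1.16). Further along, Gng11, at 5 measured genes from Peg10, rose by 2.18 in LSK and 2.36 in GMP. Bet1, between them, rose by 0.81 in LSK, a call lost without Het LSK replicate 2. Cd81, a tetraspanin gene, rose by 0.83 in GMP (adjusted p = 0.00449), a call lost without KO GMP replicate 2 (0.0534) or Het GMP replicate 1 (0.0536). H13, a signal peptide peptidase gene, fell in both, by a difference of -0.70 in LSK (adjusted p = 0.00500), which passed with each array left out, and -0.67 in GMP (adjusted p = 0.00746). In GMP the H13 call ended without KO GMP replicate 2 (0.0786) or either Het GMP array (0.0593 and 0.0643).

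The other calls of that list each depended on several arrays. In LSK they were the rises of Htr2a (0.91), Pon3 (0.71) and Gab1 (0.65) and the falls of Osbpl5, Airn and Phlda2 (differences of -0.66, -0.67 and -0.59). Gab1 lost its LSK call without replicate 1 of KO (adjusted p = 0.0852) or of Het (0.143), and Osbpl5 without any 1 of the 4 LSK arrays (0.0519 to 0.117). Htr2a lost it without Het LSK replicate 1, either KO LSK array or either Het GMP array (0.0602 to 0.226). Pon3 lost it without Het LSK replicate 2, either KO LSK array or either Het GMP array (0.0508 to 0.162). Phlda2 lost it without each array other than KO LSK replicate 1 (0.0660 to 0.235). In GMP the remaining rises were those of Tspan32 (0.77), Pon3 (0.72) and Ppp1r9a (0.65). Tspan32 lost its call without either Het LSK array or any of the 4 GMP arrays (0.0685 to 0.315), Ppp1r9a without either KO GMP array, either Het LSK array or Het GMP replicate 1 (0.0528 to 0.236), and Pon3 without KO GMP replicate 2 or either Het GMP array (0.142 to 0.211).

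**Figure D4:**
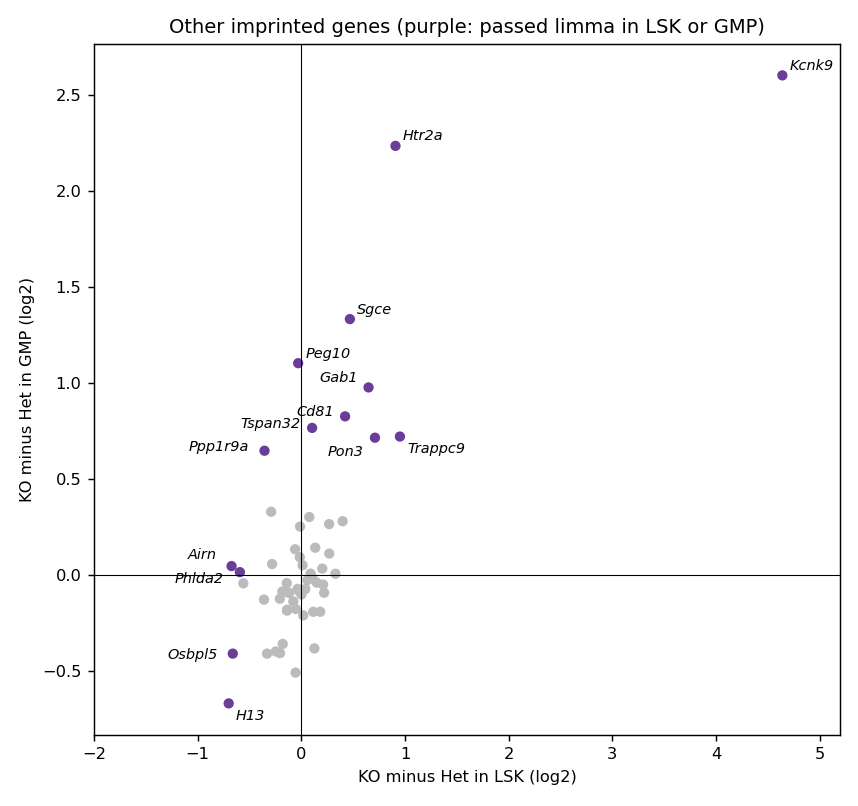
KO minus Het difference in GMP (log2, vertical axis) against that in LSK (log2, horizontal axis) for the 57 other imprinted genes measured; each point is a gene, purple where limma's adjusted p was under 0.05 in either cell type. Most points lie near 0, and Kcnk9 stands apart at 4.64 and 2.60.

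Insulin-like growth factors act through Igf1r and the insulin receptor Insr, with Igf2r and the binding proteins limiting the ligand and Irs2, Grb10 and Foxo1 acting further down. The receptors that carry the signal did not pass: Igf1r differed by -0.09 in LSK and -0.01 in GMP, and Insr by 0.40 and 0.29. Among the 24 genes of the pathway measured beside Igf2, Igf2r and Grb10, the LSK comparison gave 2 rises and 2 falls and the GMP comparison 2 rises and 0 falls by limma's adjusted test. Over all rows, 3.02% were called higher and 4.71% lower in KO LSK, and 3.45% higher and 2.57% lower in KO GMP. The medians of the 24 were -0.09 in LSK and 0.03 in GMP. At an unadjusted p under 0.05, 1 gene was lower in GMP.

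Igf2bp3, an RNA-binding protein of fetal tissues that binds Igf2 mRNA, rose in both cell types. It read 6.96 and 6.57 in KO LSK, against 4.78 and 4.83 in Het LSK, and 7.28 and 6.81 in KO GMP, against 4.90 and 4.64 in Het GMP. The rises of 1.96 in LSK (adjusted p = 0.000324) and 2.28 in GMP (adjusted p = 0.000181) passed with each array left out. Its relative Igf2bp1 stayed near 4 in every group (-0.21 in LSK, -0.16 in GMP).

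Igfbp4, a secreted binding protein gene, fell in LSK, with a difference of -1.29 (adjusted p = 0.00108), and did not pass in GMP. Irs2, a substrate of both receptors, fell in LSK (-0.91, adjusted p = 0.00663, and 0.0555 without Het LSK replicate 2) and differed by -0.08 in GMP. Foxo1, a transcription factor held out of the nucleus by insulin signals, was 1.77 higher in KO GMP (adjusted p = 0.000228), and its LSK difference was -0.27. The fall of Igfbp4 and the rise of Foxo1 passed with each array left out. Igf1 read 6.04 and 4.85 in KO LSK, against 3.70 and 4.30 in Het LSK. Its LSK difference of 1.44 (adjusted p = 0.0421) passed narrowly: it was lost without each array other than KO LSK replicate 2 (adjusted p 0.0570 to 0.226), and was 0.84 without KO LSK replicate 1 (adjusted p = 0.115).

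**Figure D5:**
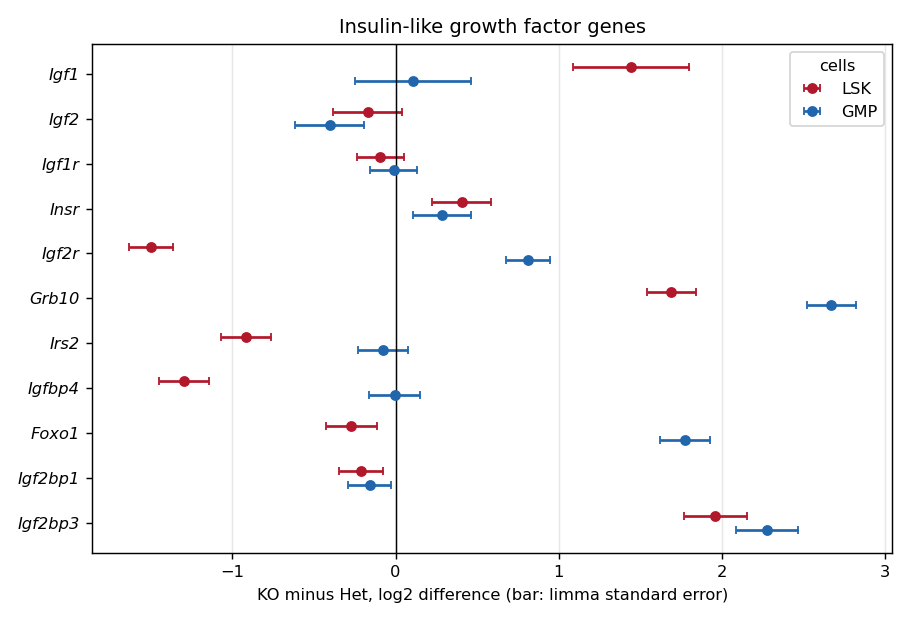
KO minus Het difference (log2, horizontal axis) of 11 genes of insulin-like growth factor signalling in LSK and GMP; points are differences and bars limma's standard error. Igf1r lies near 0, Grb10 and Igf2bp3 lie at 1.69 and 1.96 in LSK and 2.67 and 2.28 in GMP, and Igf2r lies on opposite sides of 0.

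Since Dlk1 resembles the Notch ligands, the Notch genes were counted as well. Of 23 measured beside Dlk1, KO LSK had 1 higher and 3 lower, where 3.02% and 4.71% of all rows were called. KO GMP had 2 higher and 1 lower, where 3.45% and 2.57% were. The medians of the 23 were -0.08 in LSK and 0.01 in GMP. Notch1, the receptor of early lymphoid fate, read 5.32 and 5.21 in KO LSK, against 7.69 and 7.87 in Het LSK, and 5.38 and 5.13 in KO GMP, against 6.62 and 6.76 in Het GMP. It fell by 2.52 in LSK (adjusted p = 2.4e-05) and fell by 1.44 in GMP (adjusted p = 0.000376), with each array left out as well. Dlk2, the closest relative of Dlk1, did not pass (0.08 in LSK, -0.06 in GMP). Notch2 fell in LSK (-0.70, adjusted p = 0.0345), a call lost without each array other than Het LSK replicate 1 (0.0552 to 0.197).

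Lfng, which modifies Notch receptors, was lower in KO LSK (-0.74, adjusted p = 0.0114) and higher in KO GMP (0.58, adjusted p = 0.0451). The LSK call was lost without either Het LSK array or KO LSK replicate 2 (0.0539 to 0.0750), and the GMP call without either Het LSK array or any of the 4 GMP arrays (0.0660 to 0.271). Adam10, a protease that cleaves Notch, was higher in both (0.54, adjusted p = 0.0181, and 0.53, adjusted p = 0.0246). It lost its LSK call without either Het LSK array or KO LSK replicate 2 (0.0569 to 0.106) and its GMP call without any of the 4 GMP arrays (0.110 to 0.176).

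Of 14 measured genes listed for fetal stem and progenitor cells, 3 rose and 0 fell in each cell type (0 fell at an unadjusted p under 0.05 too). The list was written with earlier results of these data known, so its counts describe the list. Over all rows 3.02% were called higher in LSK and 3.45% in GMP, and the medians of the 14 were 0.26 and 0.10. Igf2bp3 and Fgf10, a growth factor, rose in both, and Fgf10 rose by 4.92 in LSK (adjusted p = 2.3e-05) and by 2.49 in GMP (adjusted p = 0.000560), also with each array left out. Arid3a rose by 0.78 in LSK (adjusted p = 0.0229), a call lost without either Het LSK array or KO LSK replicate 1 (0.0858 to 0.130). Hmga2 rose by 1.15 in GMP (adjusted p = 0.00998), a call lost without replicate 1 of KO GMP (0.0752) or of Het GMP (0.0551). Lin28b, the fetal regulator of let-7, stayed between 2.35 and 2.89 on all 8 arrays. Of 6 CDK inhibitors measured beside Cdkn1c, 0 passed limma's adjusted test in either cell type. Over all rows, 7.73% passed in LSK and 6.02% in GMP. At an unadjusted p under 0.05, 3 inhibitors were higher and 1 lower in each cell type. The share of all rows at that unadjusted level is not given here, so these counts have no reference.

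Markers of several cell types moved with these differences. The 8 measured megakaryocyte markers averaged 7.78 and 8.001 in the KO LSK arrays, against 6.18 and 6.19 in Het LSK, and 8.50 and 8.77 in KO GMP, against 5.10 and 5.46 in Het GMP. All 8 rose in KO GMP, where 3.45% of all rows were called higher. In KO LSK 4 rose and 1 (Pf4) fell, where 3.02% were called higher and 4.71% lower. The LSK call of Pf4 was lost without Het LSK replicate 2 (difference -1.17). The GMP call of Vwf was lost without Het GMP replicate 1 (difference 1.19) or 2 (1.09). The medians of the 8 markers were 1.59 in LSK and 3.84 in GMP.

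The 9 measured LSK markers averaged 7.60 and 8.07 in KO LSK, against 8.08 and 8.38 in Het LSK, and 6.78 and 6.91 in KO GMP, against 5.70 and 5.83 in Het GMP. In KO LSK 2 rose and 4 fell, where 3.02% of all rows were called higher and 4.71% lower. The LSK falls were those of Flt3 (-3.41), Mecom (-2.47), Procr (-2.27) and Hlf (-1.11). The LSK rises were those of Tek (2.48) and Slamf1 (2.40). In KO GMP 3 rose (Slamf1 by 3.42, Tek by 3.25 and Meis1 by 3.11, each also with any array left out), where 3.45% of rows were called higher. There 0 fell by limma's adjusted test, against 2.57% of rows, with 1 lower at an unadjusted p under 0.05. Of the 4 that fell in LSK, Hlf missed the threshold without any array other than KO LSK replicate 1 (adjusted p 0.0539 to 0.214). The medians of the LSK markers were -0.25 in LSK and 0.59 in GMP.

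The 11 endothelial markers averaged 5.15 and 5.25 in KO LSK, against 4.69 and 4.79 in Het LSK, and 4.87 and 4.91 in KO GMP, against 4.10 and 4.15 in Het GMP. In LSK 3 of these rose and 1 fell, where 3.02% of all rows were called higher and 4.71% lower. In GMP 4 rose and 1 fell, where 3.45% of rows were called higher and 2.57% lower. Tek, which is also in the LSK list, Kdr (1.35 in LSK, 2.22 in GMP) and Esam (1.51 and 2.67) rose in both, and Emcn rose by 2.36 in GMP. With Het LSK replicate 1 left out, Kdr missed the threshold in LSK (adjusted p = 0.0644), and the fall of Pecam1 in LSK missed it without either Het GMP array, either Het LSK array or KO LSK replicate 2 (0.0579 to 0.159). Cdh5, the cadherin of endothelial junctions, stayed between 3.17 and 3.38 on all 8 arrays. The medians of the endothelial markers were 0.10 in LSK and 0.12 in GMP.

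The 7 erythroid markers averaged 5.74 and 5.78 in KO LSK, against 6.57 and 6.70 in Het LSK, and 5.98 and 6.04 in KO GMP, against 5.73 and 5.94 in Het GMP. In LSK 1 rose and 3 fell, where 3.02% of all rows were called higher and 4.71% lower. In GMP 2 rose and 1 fell, where 3.45% of rows were called higher and 2.57% lower. Car1, a carbonic anhydrase gene, fell in both (-3.51 in LSK, -2.75 in GMP), and Gata1 rose by 2.13 in GMP. In LSK the Gata1 rise of 0.72 missed the threshold without any of the 4 LSK arrays (adjusted p 0.0994 to 0.196), and the fall of Klf1 without either Het LSK array or KO LSK replicate 1 (0.0579 to 0.136). The medians of the erythroid markers were -0.39 in LSK and 0.23 in GMP. The part of these markers in the differences of the imprinted genes was not tested.

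The 14 stromal markers, listed because stroma can express Dlk1, averaged 3.78 and 3.89 in KO LSK, against 3.93 and 4.01 in Het LSK, and 3.70 and 3.72 in KO GMP, against 3.63 and 3.67 in Het GMP. Sparc rose in both, Pdgfrb fell in both and Bgn fell in LSK; no other stromal marker passed. In GMP the Sparc call was lost without KO GMP replicate 2 or either Het GMP array (adjusted p 0.0779 to 0.0790), and that of Pdgfrb without any of the 4 GMP arrays (0.0549 to 0.103). Col1a1 stayed between 4.73 and 4.96 and Lepr between 2.12 and 2.40 on all 8 arrays. Of 7 hepatocyte and hepatoblast markers, listed because Dlk1 marks hepatoblasts, 0 rose and 2 fell in LSK and 0 passed in GMP. At an unadjusted p under 0.05, 1 was higher in GMP, and Alb read between 2.65 and 2.92. Over all rows, 3.02% were called higher and 4.71% lower in KO LSK, and 3.45% higher and 2.57% lower in KO GMP. The GMP markers averaged 9.85 and 10.05 in KO GMP and 10.12 and 10.18 in Het GMP, against 7.81 to 8.20 in LSK of both genotypes.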

How the data were processed

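RNA of 8 samples was hybridised to Affymetrix Mouse Gene 1.0 ST arrays after amplification with a NuGEN kit, per the labels. The deposited log2 values were made by the authors with RMA, per the submitters' processing notes; software version and genome build: not given in the sources used here. Of 35556 rows, 21789 carried 1 symbol, 1621 several and 12146 none; the last 2 kinds were left out. Of the 21789, 21698 matched RefSeq names (GRCm38.p6). The row with the highest mean stood for a gene. Differences were tested two-sided with limma 3.58.1 (R 4.3.3), 1 mean per group (4 residual and 4.83 prior degrees of freedom), after a test on simulated data. SE is limma's. Arrays carry no read depth, and their number limits the precision. RMA compresses the differences of dim rows.

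The members, gene lists and tests were chosen with earlier results of these data known. Named genes were the members, the measured genes of the Dlk1-Dio3 domain, genes of the other lists that passed (the largest 6 where more did), the main receptors, ligands and Igf2 mRNA-binding genes, and the 5 rows most and least like Dlk1. Some other list genes that passed are named too. Replicate numbers were not taken as pairs of samples.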

Additional observations from a re-analysis of the deposited data

Results flagged for a closer look

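Listed here are genes whose KO minus Het difference passed limma's interaction between GMP and LSK, and 3 (Cdkn1c, Notch2 and Arid3a) that did not pass it but whose arrays were ordered in opposite ways in the 2 cell types. Each value is the GMP difference minus the LSK difference on the log2 scale, with limma's adjusted p. Among the imprinted growth genes these were Igf2r (2.31, adjusted p = 0.00128), lower in KO LSK and higher in KO GMP, and Ndn (1.07, adjusted p = 0.0319), lower in KO LSK. Ndn lay at the low end in GMP of both genotypes, where a fall could not show, so its value does not tell whether the cell types differ in the effect. Cdkn1c lay lower in both KO LSK arrays and higher in both KO GMP arrays than in Het (0.44), but limma's interaction did not pass (adjusted p = 0.391).

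Among the other imprinted genes, Peg10 (1.13, adjusted p = 0.0103) differed more in GMP. Ppp1r9a (1.00, adjusted p = 0.0407) was higher in KO GMP (0.65) and differed by -0.355 in LSK, which did not pass (adjusted p = 0.21). The Peg10 interaction was lost without Het GMP replicate 1 (0.0521) or 2 (0.0544), and that of Ppp1r9a without each array other than KO LSK replicate 1 (0.0615 to 0.161).

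In the growth factor, Notch and fetal lists, Foxo1 (2.04, adjusted p = 0.00294) was higher in KO GMP. Its interaction passed with each array left out. Igfbp4 (1.29, adjusted p = 0.0196) fell in LSK and did not pass in GMP, and Notch1 (1.08, adjusted p = 0.0243) fell more in LSK than in GMP. Each of these interactions was lost without 5 of the 8 arrays (0.0642 to 0.0878 for Igfbp4, where the arrays were all 4 GMP arrays and Het LSK replicate 1; 0.0596 to 0.115 for Notch1, where they were either Het GMP array, Het LSK replicate 2, KO GMP replicate 1 and KO LSK replicate 2). Lfng (1.32, adjusted p = 0.0104) was lower in KO LSK and higher in KO GMP, and its interaction was lost without KO GMP replicate 2 (0.0514). Fgf10 (-2.43, adjusted p = 0.0105) rose more in LSK, and was lost without Het GMP replicate 1 (0.0553) or 2 (0.0532). Notch2 (0.88, adjusted p = 0.106) and Arid3a (-0.98, adjusted p = 0.0813) had KO and Het arrays in opposite order in LSK and GMP, and their interactions did not pass; that of Arid3a passed without KO LSK replicate 2 (0.0340).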

How the results depend on the processing

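Dlk1 differed by 3.61 to 4.12 in LSK and by 3.06 to 3.52 in GMP under the alternative runs. Its difference could change only with an array of the comparison left out, array medians subtracted or quantile normalization, and kept its direction in each. The other runs leave the difference as it was and alter only its test. They were all rows tested, rows with low values left out, 2 groups fitted alone, the replicate number as a block, and a trended, robust eBayes. The row with the largest variance was the row already used for Dlk1. Counts of members that passed lay at 3 to 4 in LSK (4 as reported) and 2 to 4 in GMP (3 as reported). With all 35556 rows tested, 1 member passed between GMP and LSK in KO, 1 in Het and 1 in the interaction (3, 3 and 2 as reported), and quantile normalization left 1 in Het. Of the other imprinted genes, 2 passed in LSK and 7 in GMP with all rows tested, and 4 in LSK when its 2 groups were fitted alone (9 and 11 as reported). With each array left out in turn, members passing ranged between 1 and 3 for GMP against LSK in KO, 1 and 3 in Het, and 1 and 2 for the interaction, and other imprinted genes between 4 and 7 in LSK and 4 and 11 in GMP. Fewer samples leave fewer degrees of freedom in those fits; other causes were not tested.

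Deviations of samples with the same replicate number correlated weakly, between -0.143 and 0.179, and the numbers were not taken as pairs. The positive values were those of LSK with GMP of the same genotype (0.179 in KO, 0.133 in Het). Only such samples could share mice, and whether they did cannot be told from these values. With the replicate number as a block, 4 members passed in LSK and 4 in GMP (Meg3 in GMP at adjusted p = 0.0480), and Dlk1 differed by 3.29 in GMP (adjusted p = 0.000152). Subtracting array medians moved the median of all rows in Het GMP minus LSK to 0.16, against 0.01 as deposited. In LSK it turned 657 rows higher and 1027 lower in KO into 903 and 821, and in GMP 752 and 560 into 697 and 696. Low rows limit what can be seen: Peg3, Rian and, outside Het LSK, Ndn lay where a fall could not show. Of 654 values of single members under the alternatives, 580 were counted as unchanged. That meant the same direction and call or, for the untested LSK difference and interaction of Dlk1, a shift below the larger SD of the LSK groups. Many of these were comparisons that did not pass in any run, or runs that cannot change a difference, so the share does not measure how stable the calls were.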
